A study of Mus musculus with 4 samples.

Results

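The proteasome genes of the embryonic mouse lung were compared between Sftpc-Nmyc and wild-type lungs. A probe set, the group of short probes that reads a transcript, was counted as a member if the platform annotation gave it a single gene symbol that began with Psma, Psmb, Psmc, Psmd, Psme, Psmf or Psmg and a number. This gave 85 of 22690 probe sets, which read 48 of 12393 genes. Of these 48 genes, 46 encode subunits, activators, a regulator or assembly chaperones of the proteasome. The other 2, Psmc3ip and Psme3ip1, matched by name only: Psmc3ip acts in meiotic recombination, and Psme3ip1 binds the activator encoded by Psme3.

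RNA of whole lung was measured on 4 Affymetrix arrays, 2 from Sftpc-Nmyc embryos and 2 from wild-type embryos, all titled embryonic day 18. The transgene joins mouse Nmyc1 (now Mycn, a growth-promoting transcription factor) to EGFP and is driven by a 3.7 kb fragment of human SFTPC regulatory sequence. That fragment directs expression to lung epithelium, one of several cell types in the whole lung that was measured. The transgenic embryos came from injection into fertilized (C57BL/6J and DBA/2J) F2 eggs and were taken at E18.5, whereas strain and exact stage of the wild-type embryos are not given. The design text counts 4 transgenic embryos and calls the duplicates biological replicates, without saying which embryos were put on arrays.

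The proteasome is the protease that degrades proteins tagged with ubiquitin in the cytosol and nucleus. Its 20S core is a barrel of 4 stacked rings. The outer alpha rings (Psma genes) gate the entry and the inner beta rings (Psmb genes) carry the cutting sites. The 19S particle caps the barrel: its base of ATPases (Psmc genes) unfolds the substrate, and its lid (most Psmd genes) removes ubiquitin. In blood cells and after interferon, Psmb8, Psmb9 and Psmb10 take the places of the cutting subunits Psmb5, Psmb6 and Psmb7 and form the immunoproteasome, which favours peptides for presentation on MHC class I.

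Promoter windows of 4 members are shown for reference beside the values that follow. The windows run from 250 bases before to 50 after the start of transcription (RefSeq, GRCm38.p6), 5′ to 3′ on the strand of the gene. They are given for Psma7, the core subunit with the highest log2 fold change here, for Psmb5 and Psmb8, the standard and the immune form of one cutting site, and for Psmb9, whose window shares 275 bases with that of the peptide transporter gene Tap1 on the opposite strand. The starts of Psmb9 and Tap1 lie 226 bases apart. Capitals mark matches on either strand to TGACNNNGC (the core of the antioxidant response element, bound by the proteasome gene activator NFE2L1), CCAAT (the CCAAT box), CACGTG (the E-box, bound by MYC proteins) or GAAANNGAA (most of the core of the interferon-stimulated response element).
Psma7, chr2:180042415-180042714, minus strand: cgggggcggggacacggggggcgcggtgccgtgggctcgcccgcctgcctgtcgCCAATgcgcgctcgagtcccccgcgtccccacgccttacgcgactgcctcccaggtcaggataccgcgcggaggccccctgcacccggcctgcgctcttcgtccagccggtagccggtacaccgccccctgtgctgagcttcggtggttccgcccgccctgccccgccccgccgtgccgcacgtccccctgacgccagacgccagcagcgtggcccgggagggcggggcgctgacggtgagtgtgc
Psmb5, chr14:54617946-54618245, minus strand: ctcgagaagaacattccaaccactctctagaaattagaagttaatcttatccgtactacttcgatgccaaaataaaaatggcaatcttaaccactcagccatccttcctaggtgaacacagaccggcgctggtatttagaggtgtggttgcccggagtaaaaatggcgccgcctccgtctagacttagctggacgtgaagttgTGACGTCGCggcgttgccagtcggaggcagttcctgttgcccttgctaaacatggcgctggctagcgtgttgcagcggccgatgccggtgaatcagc
Psmb8, chr17:34197945-34198244, plus strand: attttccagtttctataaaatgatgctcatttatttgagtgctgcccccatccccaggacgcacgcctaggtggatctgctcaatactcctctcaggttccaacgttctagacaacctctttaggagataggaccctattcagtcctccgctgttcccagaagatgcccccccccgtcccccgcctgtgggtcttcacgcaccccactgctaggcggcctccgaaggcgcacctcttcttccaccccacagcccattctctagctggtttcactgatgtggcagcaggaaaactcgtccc
Psmb9, chr17:34187281-34187580, minus strand: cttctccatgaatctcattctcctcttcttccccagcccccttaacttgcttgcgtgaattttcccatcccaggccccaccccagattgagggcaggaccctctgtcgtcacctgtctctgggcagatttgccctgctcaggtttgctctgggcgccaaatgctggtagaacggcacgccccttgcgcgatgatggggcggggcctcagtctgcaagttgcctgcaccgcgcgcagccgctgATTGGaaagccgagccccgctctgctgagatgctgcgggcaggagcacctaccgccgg

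The Psma7 window holds a CCAAT box whose first base lies at position -196 from the start, and the Psmb5 window holds TGACGTCGC at position -47. The Psmb9 window holds a CCAAT box on the opposite strand at position -8, and the Psmb8 window holds none of the 4 motifs. Of the 48 genes, 40 had at least 1 window in the table, 43 windows in all. CCAAT was found in 34.9% of these windows, against 37.4% of all 32851 windows of the same length. TGACNNNGC was found in 14% of the members' windows, against 12.4% of all. CACGTG was found in 5 member windows, 11.6%, against 7.15% of all, those of Psma4, Psmb10, Psmd9, Psme3 and Psme3ip1. GAAANNGAA was found in 7, 16.3%, against 8.56% of all, and these belong to Psmb3, Psmb4, Psmc2, Psmd4, Psmd9, Psme1 and Psmg4. Matches of different motifs overlapped in 0 of the members' windows. By class, GAAANNGAA was in 0 of 3 immunoproteasome windows and in 4 of 27 windows of the constitutive core and 19S particle, and CCAAT was in 33.3% and 37% of them. A match says only that these letters are present, and each share rests on a handful of genes.

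Many genes of the constitutive proteasome and its assembly were higher in Sftpc-Nmyc lungs, each by less than 2-fold when the brightest probe set stood for the gene (dimmer probe sets of Psmg2 and Psmd6 were higher by more), and the only gene called lower belonged to the immunoproteasome. One probe set, the brightest, stood for each gene, and the 47 member genes above the 30th percentile of mean signal were tested (all but Psma8). With limma at a Benjamini-Hochberg adjusted p under 0.05 over 8675 genes, 16 of the 47 were higher and 1 was lower, and 30 did not pass. Over all genes tested, 14.7% were higher and 15.7% lower. The median log2 fold change, Sftpc-Nmyc minus wild type, was 0.38 over the members and -0.02 over all genes tested. It lay above 0 in 40 of the 47, against 48.5% of all genes. The highest estimate was 0.94, under 2-fold, whereas 5.53% of all genes were called and at least 2-fold higher. The signals of both Sftpc-Nmyc arrays lay above those of both wild-type arrays in 37 of the 47, against 33.2% of all genes. With 1 array left out the count of higher members was 14 (Sftpc-Nmyc replicate 1 omitted), 10 (Sftpc-Nmyc replicate 2), 8 (wild-type replicate 1) or 6 (wild-type replicate 2), and 8.38% to 10.1% of all genes were then higher.

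**Figure D1:**
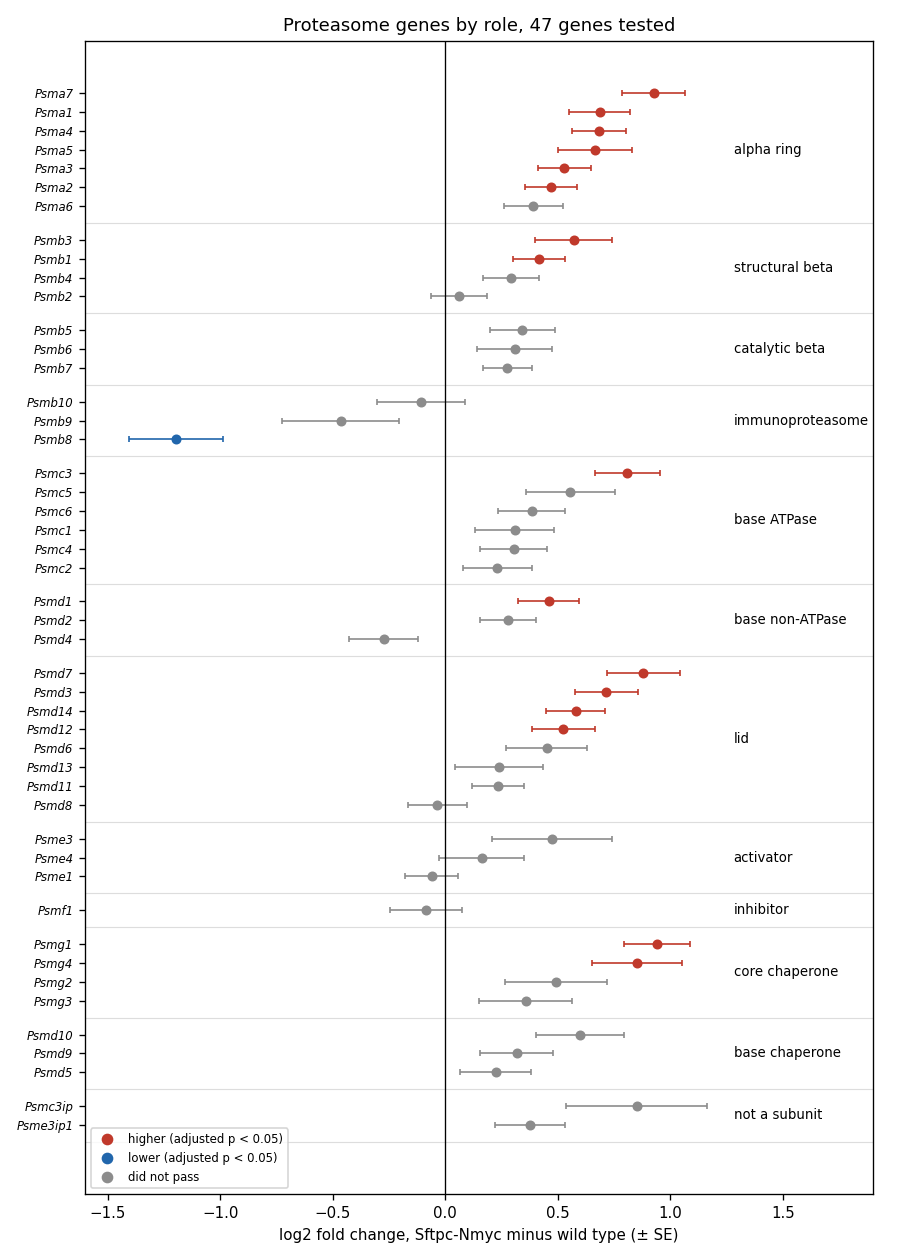
Log2 fold changes (x axis, Sftpc-Nmyc minus wild type, on the log2(signal + 5) scale) of the 47 tested genes, grouped by role. Points are limma estimates and bars their standard errors, with 2 arrays per group. The alpha ring genes lie between 0.39 and 0.93, and the 3 immunoproteasome genes lie between -1.20 and -0.11.

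The groups differed beyond the transgene. Arrays of one group correlated at r = 0.968 (Sftpc-Nmyc) and 0.965 (wild type), and arrays of different groups at 0.922 to 0.933. Xist was at 59.3 and 63.9 in Sftpc-Nmyc lungs, against 1707.8 and 1506.1 in wild-type lungs, and the Y-linked Eif2s3y at 58 and 61.7, against 3.1 and 0.8. Sex and genotype therefore cannot be told apart. The ratio of the 3′ to the 5′ actin control probe sets, a sign of RNA integrity, was 1.09 and 1.12 in Sftpc-Nmyc lungs and 0.949 and 1.01 in wild-type lungs, and its part in the results was not tested. The lung label was borne out by surfactant protein Sftpc, at 5788.1 and 4817.4 in Sftpc-Nmyc lungs and 9566.4 and 9545.8 in wild-type lungs. Of the marker genes tested, 3 of 8 epithelial ones were higher and 2 lower, whereas 8 of 8 endothelial, 6 of 7 mesenchymal and 5 of 12 leukocyte ones were lower and none higher. Over all genes tested the shares were 14.7% higher and 15.7% lower. The part of these markers in the proteasome results was not tested.

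Of the 7 alpha ring genes tested 6 rose and 1 did not pass, with a median of 0.66, whereas 14.7% of all genes tested were higher. Psma7 had deposited signals of 613.4 and 664.2 in Sftpc-Nmyc lungs, against 346.7 and 316.2 in wild-type lungs, and rose by 0.93 ± 0.14 (log2, SE, n = 2 per group; limma adjusted p = 0.00267). Psma4, at 1077.9 and 1076.1 against 616.1 and 685.6 in wild type, rose by 0.68 ± 0.12 (limma adjusted p = 0.00521). In both genes the lower transgenic array lay well above the higher wild-type array. Psma1, Psma5, Psma3 and Psma2 rose by 0.69, 0.66, 0.53 and 0.47. Psma6 had the same order of arrays, 941.7 and 1084.7 in Sftpc-Nmyc lungs against 782.9 and 724 in wild-type lungs, but it did not pass at 0.39 ± 0.13 (limma adjusted p = 0.0573). It passed without quantile normalization (0.42, 0.0426) and stood at -0.040 by the mean of its probe sets. Psma8, a form of the ring subunit that is made in testis, was listed at 16.6 and 2.1 against 5.8 and 2.9 in wild type and was too dim to be tested. The calls of Psma4 and Psma7 were kept under every alternative run, but other calls ended with 1 array left out or another setting. These were Psma1 when wild-type replicate 1 was omitted (limma adjusted p = 0.0535), Psma2 and Psma3 when either wild-type array or Sftpc-Nmyc replicate 2 was (0.0564 to 0.0875), and Psma5 when Sftpc-Nmyc replicate 2 (0.105) or wild-type replicate 2 (0.126) was. The Psma5 call also ended with the mean of its probe sets (0.56, 0.186) and without the variance trend (0.0515), as did that of Psma2 without the trend (0.0667).

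Of the 4 structural beta subunits, which have no cutting site, 2 rose, against 14.7% of all genes tested. Psmb1 was at 1452 and 1570.8 in Sftpc-Nmyc lungs, against 1079 and 1107.5 in wild-type lungs, and rose by 0.42 ± 0.12 (limma adjusted p = 0.0292). Psmb3 was at 425.9 and 569.7, against 337.2 and 319.3 in wild type, and rose by 0.57 ± 0.17 (limma adjusted p = 0.0399). Psmb2 was at 611.5 and 608.1, against 560 and 585.5 in wild type, and did not pass at 0.06 ± 0.13, the lowest value of the constitutive core; Psmb4 stood at 0.29. The calls of Psmb1 and Psmb3 ended when Sftpc-Nmyc replicate 2 or either wild-type array was omitted (log2 fold changes of 0.34 to 0.42 and 0.36 to 0.61). They also ended with the mean of the gene's probe sets (0.19, limma adjusted p = 0.381 for Psmb1 and 0.35, 0.116 for Psmb3). So they did without the signal filter (limma adjusted p = 0.0515 and 0.0731) and without the variance trend (0.0975 and 0.0785). With the replicate number as a block they ended too (0.0542 and 0.0617).

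None of the 3 standard cutting subunits passed, although the arrays of each kept the same order, as they did in 33.2% of all genes tested. Psmb5, the chymotrypsin-like site, was at 792 and 908.6 in Sftpc-Nmyc lungs, against 716.4 and 608.1 in wild-type lungs, which gave 0.34 ± 0.14 (limma adjusted p = 0.112). Psmb6, the caspase-like site, was at 724.8 and 951.4, against 703 and 619.3 in wild type, at 0.31 ± 0.16 (0.194). Psmb7, the trypsin-like site, was at 1910.2 and 2006.4, against 1643.5 and 1563.1 in wild type, at 0.28 ± 0.11 (0.0872). All 3 estimates lay between 0.28 and 0.34, below every alpha ring gene tested when the brightest probe set stood for the gene. Dimmer probe sets of Psma6 stood at 0.33 and -0.88, and the difference between the classes was not tested. The unadjusted limma p was under 0.05 for Psmb5 and Psmb7, but it takes no account of the 8675 genes tested.

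The immunoproteasome genes went the other way or showed no difference that passed. Psmb8 was at 51.9 and 43.8 in Sftpc-Nmyc lungs, against 119.1 and 121 in wild-type lungs, and fell by 1.20 ± 0.21 on the log2 scale (limma adjusted p = 0.00470). Its groups were far apart, but both transgenic values lay below 73.4, the top reading of the 27 probe sets for Bacillus control RNAs, so the size of the fall is uncertain. Psmb9 was at 53.9 and 53.5, against 98.4 and 63.6 in wild type, and did not pass at -0.46 ± 0.26 (0.213). Psmb10 was at 145.2 and 139.3, against 183.5 and 131 in wild type, with overlapping groups and -0.11 ± 0.20 (0.713). Psmb8 was the only member called lower, and its call was kept under the 11 alternatives that tested it; it was too dim to be tested with the filter at the 50th percentile. In whole lung, fewer cells that make Psmb8 and less Psmb8 RNA per cell cannot be told apart.

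**Figure D2:**
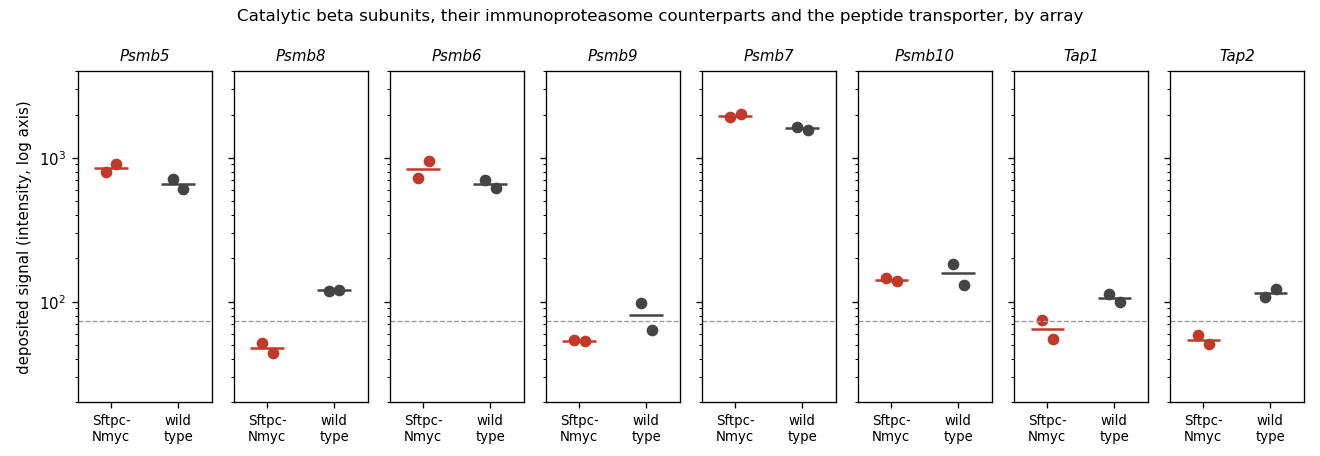
Deposited signals (log axis) of the cutting subunits Psmb5, Psmb6 and Psmb7, each left of its immunoproteasome counterpart, and of Tap1 and Tap2, by array. Points are single arrays, solid lines group means and the dashed line the highest Bacillus control signal, 73.4. Psmb8, Psmb9, Tap1 and Tap2 have every Sftpc-Nmyc array below every wild-type array; the share of all genes with this order was not computed. Psmb5, Psmb6 and Psmb7 have the opposite order, as do 33.2% of all genes tested. Of the genes with either order, only Psmb8 and Tap2 passed limma's test.

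The change of each immune subunit was set against that of the standard subunit it replaces, as a log2 ratio within each array. For Psmb8 minus Psmb5 the ratio was -3.72 and -4.20 in Sftpc-Nmyc lungs, against -2.56 and -2.29 in wild-type lungs, a difference of -1.54. For Psmb9 minus Psmb6 it was -3.55 and -4.02, against -2.81 and -3.20 in wild type, a difference of -0.77. For Psmb10 minus Psmb7 it was -3.64 and -3.79, against -3.14 and -3.52 in wild type, a difference of -0.38. Both transgenic arrays had the lower ratio in all 3 pairs. The exact permutation test over arrays gave a two-sided p of 0.333 for each pair, also after adjustment over the 3, which is the smallest p that 2 arrays against 2 can give, so no pair could pass a threshold of 0.05 here. Probe sets bind their targets unequally, so the ratio is read between groups only and not as a share of the 2 subunits.

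Genes around the immunoproteasome in antigen presentation were read from a list. On chromosome 17 Psmb9, Tap1, Psmb8 and Tap2 are neighbours. Of 11 genes of MHC class I processing tested, 2 were lower, 1 higher and 8 did not pass, with a median of -0.35 against -0.02 over all genes. These counts lie near the shares over all genes tested, 15.7% lower and 14.7% higher, and are no result about the list. Tap2, which with Tap1 forms the transporter that carries peptides into the endoplasmic reticulum, was at 58.2 and 50.4 in Sftpc-Nmyc lungs, against 107.3 and 121.9 in wild-type lungs, and fell by 0.97 ± 0.21 on the log2 scale (limma adjusted p = 0.0112). Tap1 was at 74.2 and 54.7, against 113.7 and 99.4 in wild type, and did not pass at -0.66 ± 0.22 (0.0573). Irf1, an interferon-induced transcription factor that activates Psmb8, Psmb9 and Tap1, fell by 0.58 ± 0.16 (limma adjusted p = 0.0271), and Canx, a chaperone of the endoplasmic reticulum, rose by 0.59 ± 0.12 (0.00877). With 1 array left out at least 1 omission ended each of these 3 calls, with limma adjusted p of up to 0.0716 for Tap2 (wild-type replicate 2 omitted, and 0.0541 without Sftpc-Nmyc replicate 2), 0.0620 for Canx (wild-type replicate 2) and 0.147 for Irf1 (any array). Of 3 interferon response genes bright enough to test, Irf1, which is on both lists, and Irf7 were lower and Gbp2 did not pass; the Irf7 call was kept only when Sftpc-Nmyc replicate 2 was the one omitted. Of 12 leukocyte markers tested, 5 were lower and 7 did not pass. The summed signal of 13 leukocyte genes was 1278.5 and 1227.1 in Sftpc-Nmyc lungs, against 2347.2 and 2899.8 in wild-type lungs. Csf1r (687.6 and 649.7) and Cd74 (315 and 701.8) made up much of the wild-type sum. The general leukocyte gene Ptprc, at 43.6 and 61.2 against 89.2 and 70.1 in wild type, did not pass at -0.50 ± 0.25 (limma adjusted p = 0.167). Its signals lay near 73.4, the top Bacillus control signal. The part of the leukocyte markers in the lower Psmb8 was not tested.

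Among the ATPases of the base, 1 of 6 rose. This is 16.7%, near the 14.7% of all genes tested, and is no result about the ring. Psmc3 was at 577.4 and 668.7 in Sftpc-Nmyc lungs, against 353 and 346.9 in wild-type lungs, and rose by 0.81 ± 0.14 (limma adjusted p = 0.00512), a call kept under every alternative run. Psmc5 was at 316 and 465.3, against 255.2 and 264.4 in wild type, and did not pass at 0.56 ± 0.20 (0.0676), its transgenic arrays being far apart; without Sftpc-Nmyc replicate 1 it passed at 0.83 (0.0179). Psmc6, Psmc1, Psmc4 and Psmc2 did not pass, with estimates between 0.23 and 0.38. All 6 estimates of this ring lay above 0, against 48.5% of all genes tested. By the mean of its probe sets, though, Psmc1 stood at -0.58 and Psmc6 was called higher at 0.86 (limma adjusted p = 0.0143). Both means take in a probe set too dim to be tested. That of Psmc1 was at 1.5 and 2.6 in Sftpc-Nmyc lungs, against 12.1 and 19.7 in wild type. That of Psmc6 was at 11.3 and 23.8, against 1 and 2.2 in wild type. Of the other base subunits, the scaffold Psmd1 was at 519.3 and 467.5, against 360 and 351.8 in wild type, and rose by 0.46 ± 0.14 (limma adjusted p = 0.0380), a call that ended whichever array was omitted (0.0806 to 0.152). The Psmd1 call also ended without the variance trend and with the replicate number as a block. The scaffold Psmd2 did not pass at 0.28 ± 0.12. The ubiquitin receptor Psmd4 was at 416.3 and 459.1, against 570.7 and 478.6 in wild type, and did not pass at -0.27 ± 0.15 (0.216), the only negative estimate in the base. By the mean of its probe sets, which also takes in a probe set too dim to be tested, Psmd4 stood at 0.53.

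The lid, whose task is to cut ubiquitin chains off the substrate, had 4 of 8 genes higher and none lower, with a median of 0.49. The shares over all genes tested were 14.7% and 15.7%. Psmd7, the partner of the deubiquitinating subunit, was at 226 and 218.3 in Sftpc-Nmyc lungs, against 112.8 and 124.9 in wild-type lungs, and rose by 0.88 ± 0.16 (limma adjusted p = 0.00559). Psmd3 was at 449.1 and 481, against 281.1 and 277 in wild type, and rose by 0.72 ± 0.14 (0.00732). Psmd14, the deubiquitinating enzyme itself, rose by 0.58 ± 0.13 and Psmd12 by 0.52 ± 0.14. Psmd8 was at 637.4 and 581.5, against 586.5 and 635.3 in wild type, with overlapping groups and a log2 fold change of -0.04 ± 0.13. Psmd6, Psmd13 and Psmd11 did not pass, at 0.45, 0.24 and 0.23. The Psmd12 call ended without the variance trend and with the replicate number as a block. The call of Psmd7 was kept whichever array was omitted. That of Psmd3 ended when wild-type replicate 2 was omitted (limma adjusted p = 0.0513), that of Psmd14 when Sftpc-Nmyc replicate 1 or either wild-type array was (0.0503 to 0.0827), and that of Psmd12 when any array was (0.0784 to 0.117).

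By the brightest probe set of each gene, the activators and the inhibitor showed no call, and none had an unadjusted p under 0.05. Psme1, a subunit of the interferon-induced cap that opens the core, was at 1083.9 and 988.2 in Sftpc-Nmyc lungs and 1009.1 and 1079.7 in wild-type lungs, at -0.06 ± 0.12 (limma adjusted p = 0.737). Psme3, the nuclear form of that cap, was at 136.5 and 167.7, against 82.8 and 143.5 in wild type, at 0.47 ± 0.27 (0.219). Psme4, a nuclear activator of the core, was at 304 and 283, against 311.9 and 218.5 in wild type, at 0.16 ± 0.19 (0.556). By these probe sets the groups overlapped in all 3 genes. A dimmer probe set of Psme3, at 138.2 and 135 against 72.3 and 95.7 in wild type, was called higher at 0.72 (limma adjusted p = 0.0383). Its dependence on single arrays is given below. A dimmer probe set of Psme4 kept the groups apart at 0.33 but did not pass, and in another they overlapped. Psmf1, a binder of the core first described as its inhibitor, was at 163.3 and 178.4, against 175.2 and 190 in wild type, at -0.08 ± 0.16 (0.725).

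The chaperones that build the core included the highest estimate of all members. Psmg1, which with Psmg2 assembles the alpha ring, was at 442 and 450.6 in Sftpc-Nmyc lungs, against 245.8 and 212.4 in wild-type lungs, and rose by 0.94 ± 0.15 (limma adjusted p = 0.00307), a call kept under every alternative run. Psmg4 was at 342.4 and 245.2, against 177.2 and 143.6 in wild type, and rose by 0.85 ± 0.20 (0.0161), a call that ended when Sftpc-Nmyc replicate 1 (0.62, limma adjusted p = 0.0840) or wild-type replicate 2 (0.71, 0.108) was omitted. Its partner Psmg3 was at 144.1 and 154.4, against 139.3 and 96.8 in wild type, and did not pass at 0.36 ± 0.21. Psmg2 did not pass at 0.49 ± 0.23 by its brightest probe set, at 316.5 and 196.1 against 172.9 and 179.9 in wild type. None of the 3 chaperones of the base passed, Psmd10 alone having an unadjusted p under 0.05. Psmd10, an X-linked gene, was at 99 and 99.2, against 69.9 and 62.1 in wild type, at 0.60 ± 0.20 (limma adjusted p = 0.0515), Psmd9 stood at 0.32 ± 0.16 and Psmd5 at 0.22 ± 0.16. The name matches Psmc3ip, at 75 and 143 against 50.7 and 66.8 in wild type, and Psme3ip1, at 215.8 and 241.9 against 175.1 and 175.7, did not pass either, at 0.85 ± 0.31 and 0.38 ± 0.16.

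Probe sets of a single gene differed in several cases. Of the 85 member probe sets 69 were bright enough to test, and in a fit over 14266 probe sets 21 were higher and 1 lower, against 13.5% and 12.9% of all probe sets tested. Among the probe sets tested, Psmg2 had the widest gap: its dimmer probe set was at 264.3 and 169.3 in Sftpc-Nmyc lungs, against 37.4 and 35.4 in wild-type lungs, and rose by 2.44 (limma adjusted p = 0.000922), whereas the brighter one gave 0.49. For Psmd6 the dimmer probe set was at 225.1 and 231.8, against 65.5 and 92.4 in wild type, and rose by 1.53 (0.00262), while the brighter one gave 0.45. The wild-type signals of 37.4 and 35.4 for Psmg2 and 65.5 for Psmd6 lay below 73.4, the top Bacillus control signal. The sizes of both rises are therefore uncertain. Both calls were kept whichever array was omitted. With the mean of a gene's probe sets Psmg2 was called higher at 1.46 (limma adjusted p = 0.00379) and Psmd6 at 0.99 (0.00269). A dimmer probe set also passed where the brightest did not for Psmb4 (0.76, limma adjusted p = 0.0194) and Psme3 (0.72, 0.0383), but each of these 2 calls was kept under only 1 of the 4 omissions, that of wild-type replicate 2 (0.0328 for Psmb4 and 0.0371 for Psme3). In these 4 genes the counts by gene and by probe set therefore differ, and which transcript ends the probe sets read was not determined here. For Psma7 both probe sets rose, by 0.93 and 0.64, the dimmer one with a limma adjusted p of 0.0303 to 0.0852 when 1 array was omitted. No gene had probe sets called in opposite directions, but none could: the only probe set called lower was the single one of Psmb8. Estimates of tested probe sets did differ in sign, among others for Psma6 (0.39 and -0.88), Psmb1 (0.42 and -0.32) and Psmd11 (0.23 and -0.43). Of these values, only the 0.42 of Psmb1 passed.

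**Figure D3:**
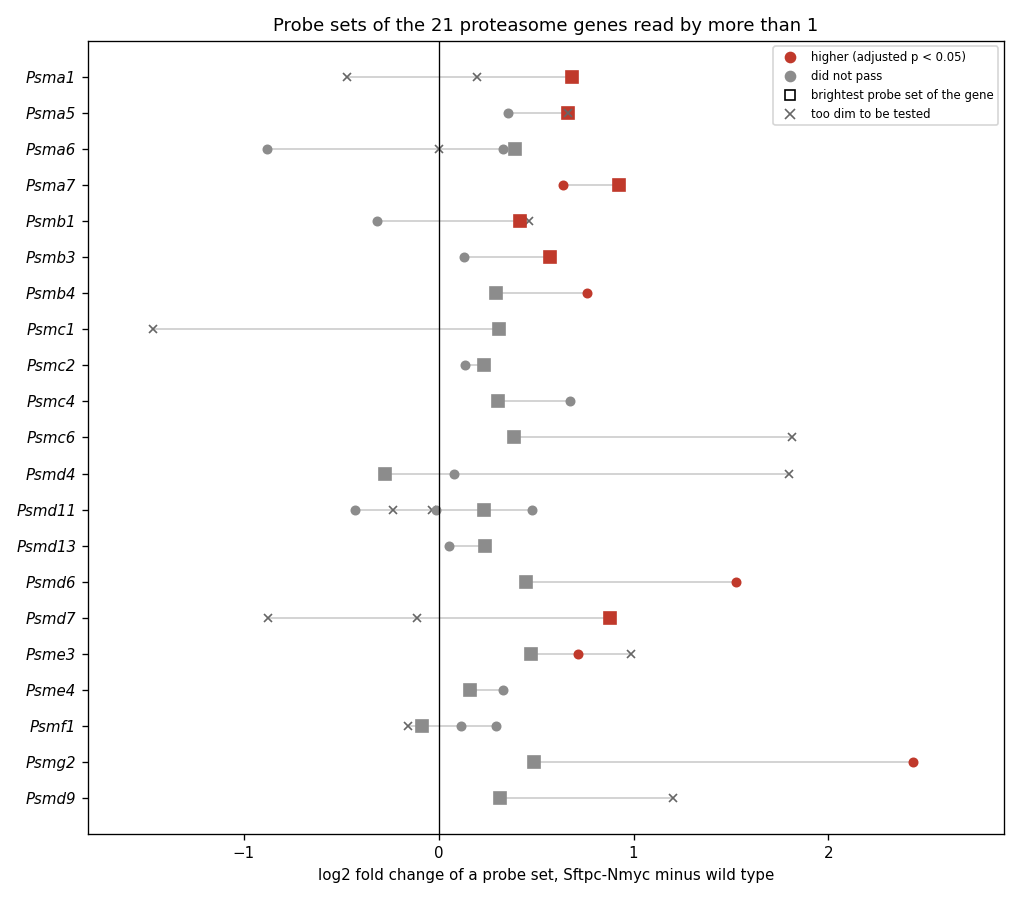
Log2 fold changes (x axis, Sftpc-Nmyc minus wild type) of every probe set of the 21 genes read by more than 1, by gene. Squares are the brightest probe set of a gene, circles the others and crosses probe sets too dim to be tested; colour gives the call of the fit over probe sets. Psmg2 spans 0.49 to 2.44 and Psmd6 0.45 to 1.53, and both have a dimmer probe set that passed. Psmd4 spans more, -0.27 to 1.80, through a probe set too dim to be tested.

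Partners of the proteasome outside the name rule were read from lists too. Of 10 helpers of assembly and function 2 were higher, 1 was lower and 7 did not pass, with a median of 0.11, near the 14.7% higher and 15.7% lower of all genes tested. Ecpas, an adaptor that binds the 26S proteasome, was at 127.4 and 122.6 in Sftpc-Nmyc lungs, against 79.5 and 66 in wild-type lungs, and rose by 0.78 ± 0.19. Uchl5, a deubiquitinating enzyme of the base, was the other one called higher, at 0.58 ± 0.18 (limma adjusted p = 0.0470). Zfand5, a zinc-finger protein that stimulates the proteasome, was at 446.5 and 468, against 722.8 and 703.8 in wild type, and fell by 0.65 ± 0.13 on the log2 scale. Pomp, the maturation factor of the beta ring, did not pass at 0.37 ± 0.13 (0.0665). None of 6 genes listed as regulators of proteasome genes passed limma's test. Nfe2l1, which raises proteasome gene transcription when the proteasome is inhibited, stood at -0.32 ± 0.14 and Nfe2l2 at -0.42 ± 0.20. Nfyb, a subunit of the CCAAT-binding factor, stood at 0.72 ± 0.29 (limma adjusted p = 0.101) and alone had an unadjusted p under 0.05. Of 8 genes of ubiquitin shuttling and extraction, all 8 had estimates above 0, against 48.5% of all genes tested. Only 1 of the 8 was called higher, 12.5%, near the 14.7% of all genes tested. It was Ubqln4, a shuttle of tagged proteins, at 0.52 ± 0.15, and Ubqln2 and Nploc4 stood at 0.44 and 0.43. The calls of Uchl5 and Ubqln4 ended whichever array was omitted (limma adjusted p = 0.0601 to 0.208 and 0.0772 to 0.145), that of Ecpas was kept only when wild-type replicate 1 was (0.0379), and that of Zfand5 ended when wild-type replicate 1 was (0.0551).

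The fold changes of the proteasome were set beside those of 2 other large complexes, as counts and medians only. Over all genes tested 14.7% were higher, with a median of -0.02. The constitutive core had 8 of 14 genes higher and a median of 0.44, and the 19S particle 6 of 17 and a median of 0.38. The chaperonin that folds cytoskeletal proteins (Cct genes) had 7 of 7 tested genes higher and a median of 0.87. The cytosolic ribosomal proteins had 13 of 43 higher and a median of 0.17. The highest estimate of the core and the 19S particle, 0.93 for Psma7, lay below those of several chaperonin and ribosomal protein genes, which reached 1.25 and 1.72. Whether these complexes differ from one another was not tested.

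**Figure D4:**
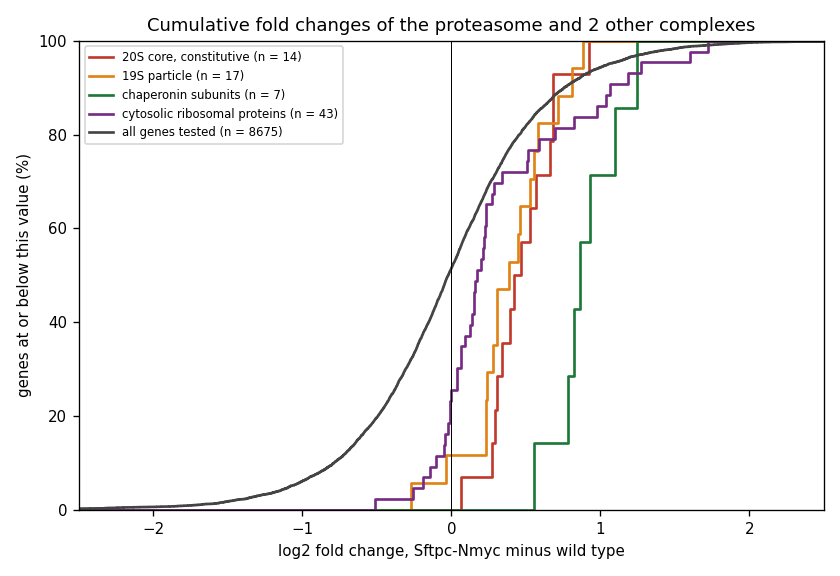
Share of genes (y axis, percent) at or below each log2 fold change (x axis, Sftpc-Nmyc minus wild type) for the constitutive 20S core, the 19S particle, the chaperonin, the cytosolic ribosomal proteins and all 8675 genes tested. The core and 19S curves lie to the right of that of all genes over most of the range and end below 1, with medians of 0.44 and 0.38 against -0.02.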

How the data were processed

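Members and lists were chosen with earlier results of these data known. The authors deposited linear intensities, 1 per probe set and array; biotin labelling with an Affymetrix kit is per the labels' protocols, and the software behind the values is not given in the sources used here. On each array the mean after trimming 2% at either end is 150.05. Detection calls were not used here.

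The signals were floored at 1, offset by 5, put on a log2 scale and quantile normalized between arrays, without control probe sets. Fold changes are on that scale and understate changes of dim genes. The 20380 probe sets with 1 symbol entered; all 85 members matched a RefSeq gene identifier. The brightest probe set stood for a gene, and genes below the 30th percentile were left out. limma 3.58.1 in R 4.3.3 (lmFit, eBayes with trend) was fitted with group alone, with Benjamini-Hochberg adjustment over all genes tested. The code was tested on simulated data. Errors are limma SE.

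Genes named in full were, by rule, the 6 cutting subunits, the activators, per other class the 2 largest and the smallest moderated statistics, and every gene called lower. Probe sets singled out were chosen after their values were seen. A probe set with 2 symbols, those of the activator genes Psme2 and Psme2b, was left out. It was at 301.1 and 322.8 in Sftpc-Nmyc lungs, against 300.2 and 329.5 in wild-type lungs, a log2 fold change of -0.01. Replicate numbers did not pair the arrays (r = -0.04 between the groups' replicate differences over 8675 genes). Alternatives varied normalization, offset, filter, variance trend, probe set choice, replicate block and single arrays. The mean of a gene's probe sets took in those too dim to be tested singly.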

Additional observations from a re-analysis of the deposited data

How the results depend on the processing

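The count of 16 higher proteasome genes ranged from 11 to 17 under the alternatives, except with 1 array left out, where 6 to 14 were higher. The 17 with the mean of probe sets shared 11 genes with the 16: Psma5, Psmb1 and Psmb3 were lost, 2 were not tested, and Psmb4, Psmc6, Psmd6, Psmd9, Psmd10 and Psmg2 were gained. For Psmc6 and Psmd9 that mean took in a probe set too dim to be tested. The count was 13 with the replicate number as a block, a number that pairs no samples here, and 11 without the variance trend. Over probe sets, 21 were higher, 12 without the trend and 10 to 18 with 1 array left out. The single lower gene, Psmb8, was called under every setting but the 50th percentile filter, where it was not tested and the count was 0. Lower probe sets numbered 2 with no filter and 1 to 2 with 1 array left out. Over all genes tested, 14.7% were higher and 15.7% lower. Among the other pathway genes tested (10 helpers, 6 regulators, 8 ubiquitin genes and 11 MHC class I genes), 4 were higher and 3 lower. With no filter 2 were higher, and with 1 array left out 1 to 2 were higher and 1 to 5 lower. All 3 differences between immune and standard cutting subunits kept their sign: Psmb8 minus Psmb5 ran from -1.78 to -1.23, Psmb9 minus Psmb6 from -1.01 to -0.54 and Psmb10 minus Psmb7 from -0.58 to -0.19 over 8 alternatives. Of 47 gene estimates, 7 changed sign somewhere, none of them called either way. With the mean of probe sets Psma6 stood at -0.040, Psmc1 at -0.58, Psmd4 at 0.53 and Psmf1 at 0.041. With 1 array left out Psmb10 ran from -0.34 to 0.12 (above 0 when wild-type replicate 1 was omitted), Psme4 from -0.085 to 0.41 (below 0 when wild-type replicate 2 was) and Psmd8 from -0.092 to 0.021 (above 0, at 0.021 and 0.011, when Sftpc-Nmyc replicate 2 or wild-type replicate 2 was). The cause was not tested. Signals near the Bacillus controls (Psmb8, Psmb9, Tap1, Tap2, Psmd10, Psmc3ip and the dimmer probe sets of Psmg2 and Psmd6) limit the size of those changes. By the brightest probe set, 43 of 48 genes lay above 73.4 on every array.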
